A study of Mus musculus with 4 samples.

Results

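Nrf2, encoded by Nfe2l2, is the transcription factor that answers oxidants and electrophiles, and the 44 genes described here are its regulators, its classical targets and the enzymes of the glutathione and thioredoxin systems. They were taken by symbol from the deposited gene table, in which each of the 44 matched 1 of 24016 rows. Of them, 43 had a mean of at least 1 CPM (counts scaled to a common library size) over the libraries, as did 14450 genes in all. The exception was Gsta2.

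The libraries came from colon tissue of C57BL/6 mice raised germ-free, meaning without any microbes, aged 7 weeks. There was 1 library for each of 4 conditions: oral gavage with Lactobacillus rhamnosus GG (LGG, a probiotic), gavage with Escherichia coli, gavage with phosphate-buffered saline (PBS, the vehicle) and no treatment. The labels give the dose of both bacteria as 2 x 10E9, in cfu/mL, and no volume. Tissue was a 4 cm length of colon collected 4 h later. Each gavaged group had 4 mice per the labels, which leave unsaid whether 1 mouse or a pool went into a library. The series title names Nrf2 as the pathway through which lactobacilli act on the epithelium, so the comparison of first interest was LGG against PBS.

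In unstressed cells the adaptor Keap1 holds Nrf2 in the cytoplasm and delivers it for degradation. Oxidants or electrophiles modify Keap1, Nrf2 accumulates in the nucleus, pairs with small Maf proteins and binds antioxidant response elements near its targets, where Bach1 competes as a repressor. Because this switch acts largely on the protein, Nrf2 activity is usually read from its targets rather than from Nfe2l2 mRNA. In the gut, the pathway is known for protecting epithelial cells against oxidants and dietary electrophiles.

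The libraries held 29899371 assigned counts after LGG, 29368008 after E. coli, 16289580.0 after PBS and 27220697 without treatment. A count of 0 allowed up to 0.103 CPM after LGG and after E. coli, 0.187 after PBS and 0.105 untreated. Absorptive colonocyte and goblet cell markers were abundant in every library, at summed levels of 9827 to 12987 CPM and 20637 to 22410 CPM, and no member of either list was at 0. Pancreatic acinar markers were also present, at 49.9 summed CPM after LGG, 89.1 after E. coli, 24.1 after PBS and 3.82 untreated, with only Amy2a5 at 0 in all libraries. All 11 measured ones were past 1.5-fold and higher in both LGG and E. coli against PBS. B and plasma cell markers were lowest in the untreated library, at 35.6 summed CPM after LGG, 42.7 after E. coli, 38.01 after PBS and 21.7 untreated, with none of the 7 in the table at 0 and 6 of 7 past 1.5-fold and higher in PBS against untreated. The part of these cells in the members' differences was not tested. With 1 library per condition no test between conditions was possible. Every interval below is a 95% counting interval, compares those libraries and not the conditions, and covers counting error only. Fewer cells of a type and less RNA per cell cannot be told apart in such whole-tissue libraries.

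The member genes were expressed at levels that spanned several orders of magnitude. Per gene length, as CPM per kilobase (RPKM, averaged over the 4 libraries), thioredoxin (Txn1) stood highest at 925, followed by the membrane-bound transferase Mgst3 at 489 and the superoxide dismutase Sod1 at 384. Next came Taldo1 at 265 RPKM and Cbr1 at 202 RPKM. At the low end were Hmox1 at 2.94, Ggt1 at 1.39, Abcc2 at 0.990, Gsta2 at 0.245 and the cystine transporter Slc7a11 at 0.205 RPKM. The members together held 6412 CPM after LGG, 6091 after E. coli, 6047 after PBS and 5630.0 untreated.

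**Figure D1:**
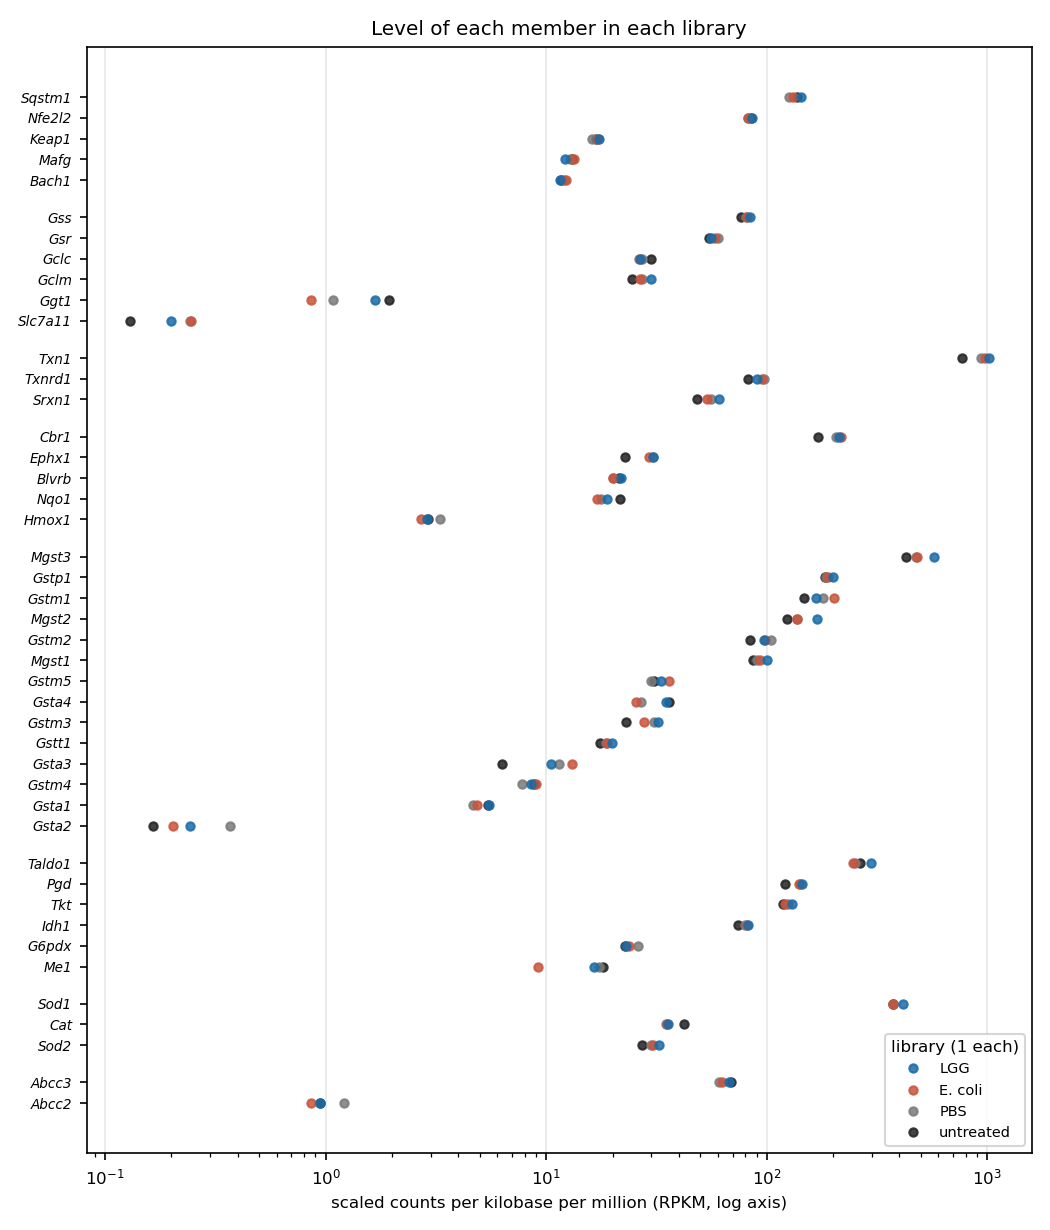
Level of each of the 44 members, grouped by role, as CPM per kilobase (RPKM, log axis); each point is 1 library. The 4 points of most genes lie close together, and the levels of different genes run between 0.205 (Slc7a11) and 925 RPKM (Txn1) on average.

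Most members differed little between the libraries. The highest level over the lowest among the 4 libraries had a median of 1.19-fold over the 43 members and of 1.19-fold over all 14450 genes. It stayed under 1.5-fold in 39 of the members, or 90.7%, against 86.3% of all genes. The members beyond 1.5-fold were Ggt1 at 2.26-fold, Gsta3 at 2.08-fold, Me1 at 1.97-fold and Slc7a11 at 1.91-fold. A difference between a pair of libraries was counted when it reached 2-fold, or by a second rule 1.5-fold, with a counting interval that excluded 0 on the log2 scale. By the 2-fold rule no member was counted in LGG against PBS, where 0.277% of all genes were, in E. coli against PBS (0.415% of all genes) or in LGG against E. coli (0.36%). The same held for PBS against untreated (1.45%) and LGG against untreated (1.04%). In E. coli against untreated, with 2.35% of all genes counted, Gsta3 was higher and Ggt1 lower.

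By the 1.5-fold rule, Ggt1 alone was counted in LGG against PBS, 1 of 43 members beside 1.57% of all genes. Me1 alone was counted in E. coli against PBS (1.47% of all genes), and Ggt1 and Me1 in LGG against E. coli (2.19%). In PBS against untreated, with 5.88% of all genes, the counted members were Slc7a11, Gsta3 and Ggt1. In LGG against untreated it was Gsta3 (5.27% of all genes), and in E. coli against untreated Gsta3, Slc7a11, Ggt1 and Me1 (8.3%). Ggt1 was higher after LGG than after PBS or E. coli and lower after PBS and E. coli than untreated. Me1 was lower after E. coli in each of its comparisons, and Gsta3 and Slc7a11 were higher in the gavaged library of each of theirs.

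**Figure D2:**
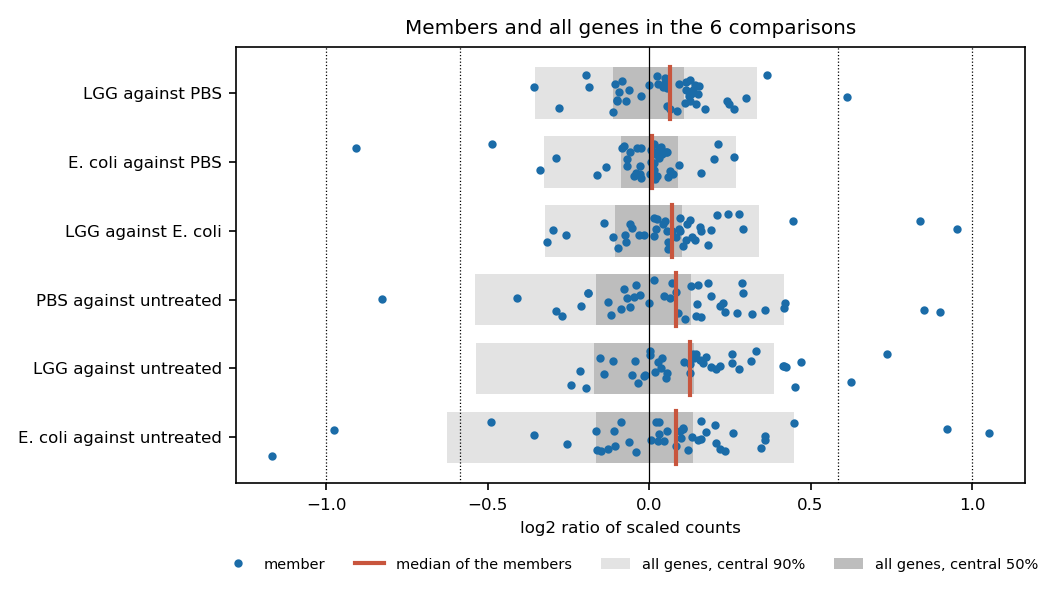
Log2 ratio of scaled counts for 43 members (blue points) in 6 comparisons, with the median of the members (red line) and the central 50% and 90% of all 14450 genes (grey bars); dotted lines mark 1.5-fold and 2-fold. In LGG against PBS the median of the members lies at 0.06 and only Ggt1 lies beyond 1.5-fold.

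The direction of the small differences was nevertheless not evenly split. In LGG against PBS, 30 of the 43 members had a positive log2 ratio, or 69.8% against 49.3% of all genes, and the median was 0.06, beside -0.0026 over all genes. In E. coli against PBS 25 were positive, or 58.1% against 50.7% of all genes, and the median was 0.0089, beside 0.0022. In LGG against E. coli 31 were positive, or 72.1% against 49.9% of all genes, and the median was 0.07, beside -0.00022. PBS against untreated, a pair with no bacteria, gave 27 positive members, or 62.8% against 50.3% of all genes, and a median of 0.08, beside 0.0015. Against the untreated library, 32 members were positive after LGG, or 74.4% against 49.7% of all genes, with a median of 0.13. After E. coli 29 were, or 67.4% against 51.0%, with a median of 0.08. Scaled by library totals alone, these counts were 24 after LGG, 21 after E. coli and 21 after PBS, each over a median of all genes that was itself shifted by -0.08 to -0.10. These comparisons share the PBS or the untreated library.

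By library, 22 of the 43 members had their highest level after LGG, or 51.2%, where 24% of all genes did. Among them were Nfe2l2, Keap1, Gclm, Srxn1, Txn1, Mgst1, Mgst2, Mgst3, Sod1 and Sod2. All ranks here go by point values, and some differences behind them are within counting error. Nfe2l2 gave 0.02 (-0.03 to 0.07) in LGG against untreated, and Keap1 0.02 (-0.06 to 0.11) in LGG against E. coli. The lowest level fell in the untreated library for 24 members, or 55.8%, against 34.2% of all genes. Scaled by library totals alone, the first count was 16, or 37.2% against 15.96% of all genes, and the second 17, or 39.5% against 18.1%. The E. coli library was highest for 8 members (22.2% of all genes) and lowest for 8 (21.4%), and the PBS library highest for 6 (20.2%) and lowest for 9 (20.8%). The untreated library was highest for 7 members (33.6%) and the LGG library lowest for Mafg and Bach1 alone (23.6%). Both bacterial libraries lay above both without bacteria for 13 members, or 30.2%, against 17.3% of all genes, among them Keap1, Gss, Txn1, Cbr1 and Sod2. They lay below both for Gclc, Hmox1 and Me1, or 6.98%, against 17.8% of all genes.

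**Figure D3:**
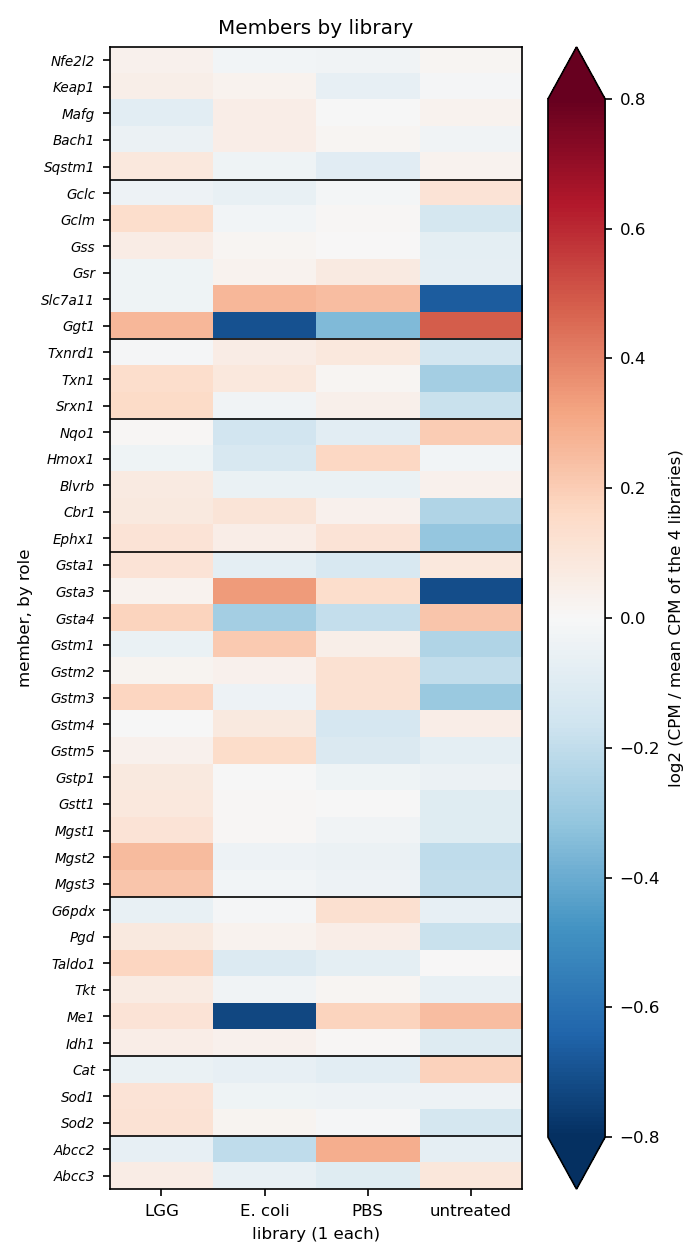
Log2 of the CPM of each of 43 members over its mean CPM in the 4 libraries, with columns for the libraries and lines between role groups. The LGG column holds the highest level of 22 members and the untreated column the lowest of 24.

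Among the regulators, Nfe2l2 (NM_010902, chromosome 2, 75513576 to 75542698 in mm9, minus strand) stood at 211 CPM after LGG, 202 after E. coli, 202 after PBS and 208 in the untreated library. Its 4 libraries lay within 1.05-fold of each other, the narrowest range of any member. The ratio of Nfe2l2 was 0.06 (0.003 to 0.13) in LGG against PBS and 0.06 (0.007 to 0.11) in LGG against E. coli. In every other comparison its interval includes 0. Keap1 (NM_016679, chromosome 9, 21034174 to 21043776) was at 77.6 CPM after LGG, 76.6 after E. coli, 71.8 after PBS and 74.9 untreated. By point values both bacterial libraries lay slightly above both others, but only the LGG against PBS interval excludes 0, at 0.11 (0.01 to 0.22).

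Sqstm1, the autophagy adaptor p62, which can pull Keap1 away from Nrf2, was at 288 CPM after LGG, 266 after E. coli, 255 after PBS and 277 untreated. It had the regulators' ratio farthest from 0 by its interval, 0.17 (0.12 to 0.23) in LGG against PBS, while in PBS against untreated it was at -0.12 (-0.17 to -0.06). The repressor Bach1 and Mafg, a small Maf partner of Nrf2, stood between 67.3 and 72.1 CPM and between 19.8 and 21.8 CPM, each highest after E. coli and lowest after LGG. For Mafg every interval includes 0, and for Bach1 only that of LGG against E. coli excludes it, at -0.10 (-0.19 to -0.01). Over the 5 regulators the ratios ran between -0.08 and 0.17 in LGG against PBS and between 0.01 and 0.09 in E. coli against PBS.

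The sequence Nrf2 is known to bind has the core TGACNNNGC. In RefSeq promoter windows (build GRCm38.p6, 250 bases before to 50 after each listed start site), 39 of the 44 members had at least 1 window, and 14 of these 39 (35.9%) held the core on either strand, against 13.99% of the 27025 genes with a window. Per window the core was in 16 of 51, or 31.4%, against 12.4% of all 32851 windows. Of the matches, 7 are shown in lower case with the core in capitals and 10 bases on each side, read 5′ to 3′ on the strand that carries the core, so that the letters filling the open positions can be compared.
Nfe2l2, chr2:75704885-75704913, minus strand: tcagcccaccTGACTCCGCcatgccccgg
Gclm, chr3:122245413-122245441, minus strand: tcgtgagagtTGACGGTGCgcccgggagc
Txnrd1, chr10:82859104-82859132, minus strand: cgtgtcagaaTGACAAAGCaaaaatccag
Srxn1, chr2:152105542-152105570, minus strand: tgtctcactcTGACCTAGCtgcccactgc
Gsta3, chr1:21240454-21240482, plus strand: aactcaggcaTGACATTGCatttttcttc
Mgst1, chr6:138140461-138140489, minus strand: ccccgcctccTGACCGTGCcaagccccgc
Me1, chr9:86695902-86695930, minus strand: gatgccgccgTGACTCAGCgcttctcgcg
The 7 cores shown differ from each other in the open positions, and that of Me1 has the letters TGACTCAGC. Among the matches not shown, Mafg has the same core as Mgst1, and Pgd the same as Gsta3. Ggt1 has 3 matches, also not shown. A match describes the letters and not binding. Nqo1, Keap1, Txn1 and Slc7a11 had no match in their windows, which says only that these letters are not in this stretch.

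The glutathione genes split between steady and variable members. Gclc, the catalytic subunit of the enzyme that makes the first step of glutathione synthesis, stood at 91.2 CPM after LGG, 90.4 after E. coli, 92.8 after PBS and 101 untreated. Gclm, its modifier subunit, was at 61.6 CPM after LGG, 55.2 after E. coli, 56.3 after PBS and 50.8 untreated. In the untreated library Gclc was thus at its highest and Gclm at its lowest. Against untreated, LGG gave -0.15 (-0.23 to -0.08) for Gclc and 0.28 (0.18 to 0.38) for Gclm.

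The synthetase Gss and the reductase Gsr, which closes the glutathione cycle with NADPH, each stayed within 1.10-fold over the libraries. Their LGG against PBS ratios were 0.06 (-0.01 to 0.13) for Gss and -0.11 (-0.18 to -0.04) for Gsr. Slc7a11, which brings in cystine for glutathione, had 54, 66, 36 and 34 counts in the LGG, E. coli, PBS and untreated libraries. These are 1.85 CPM after LGG, 2.27 after E. coli, 2.24 after PBS and 1.19 untreated, so the untreated library was the low one. The ratio was 0.90 (0.20 to 1.63) in PBS against untreated and 0.92 (0.31 to 1.57) in E. coli against untreated, while in LGG against untreated it was 0.62 (-0.01 to 1.30), an interval that includes 0.

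Ggt1, the surface enzyme that breaks down extracellular glutathione, ranged most of all members. It had 98 counts after LGG, 50 after E. coli, 35 after PBS and 111 in the untreated library, or 3.35, 1.72, 2.18 and 3.89 CPM. The LGG and untreated libraries were high, and the E. coli and PBS libraries low. Within each pair the interval includes 0: -0.21 (-0.62 to 0.19) in LGG against untreated and -0.34 (-0.99 to 0.32) in E. coli against PBS. The ratio was 0.61 (0.05 to 1.22) in LGG against PBS, 0.95 (0.45 to 1.48) in LGG against E. coli, -0.83 (-1.43 to -0.27) in PBS against untreated and -1.17 (-1.69 to -0.68) in E. coli against untreated.

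By point values the proximal colon list ran in the same order. It summed to 75.5 CPM after LGG, 42.2 after E. coli, 56.1 after PBS and 134 untreated, with none of 6 genes at 0. Of its 5 measured genes, Hoxb6, Hoxb7, Hoxb8 and Osr2 were past 1.5-fold and lower in each gavaged library against untreated. Its median was -0.88 in LGG against untreated, where the interval of Ggt1 includes 0. Small intestinal enterocyte markers, a list of 13 with none at 0, summed to 950.3 CPM after LGG, 719 after E. coli, 777 after PBS and 976 untreated. The sum does not show how its genes split. In LGG against untreated 10 of 13 had negative ratios, 8 of them past 1.5-fold, and the median was -0.71, while Rbp2 was higher, at 0.94. The order of these lists was matched to Ggt1 after the values were seen, and their part in its difference was not tested. With 35 counts in the PBS library and an interval bound of 0.05, the excess of Ggt1 after LGG over PBS did not pass the rule with a prior of 5 counts.

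In the thioredoxin system the untreated library was the low one for each member. Txn1, the small protein that reduces disulfides, stood at 1063 CPM after LGG, 1023 after E. coli, 977 after PBS and 798 untreated. Its ratio against untreated was 0.41 (0.39 to 0.44) after LGG, 0.36 (0.33 to 0.38) after E. coli and 0.29 (0.26 to 0.32) after PBS. All 3 gavaged libraries, the vehicle included, were therefore above the untreated library, and LGG against PBS gave only 0.12 (0.09 to 0.15).

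Txnrd1, the reductase that recharges thioredoxin with NADPH, was at 309 CPM after LGG, 324 after E. coli, 330 after PBS and 281 untreated. Srxn1, which repairs overoxidised peroxiredoxins, was at 171 CPM after LGG, 150 after E. coli, 158 after PBS and 136 untreated. In LGG against PBS these classical targets lay on opposite sides, with Txnrd1 at -0.10 (-0.14 to -0.05) and Srxn1 at 0.11 (0.04 to 0.18).

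**Figure D4:**
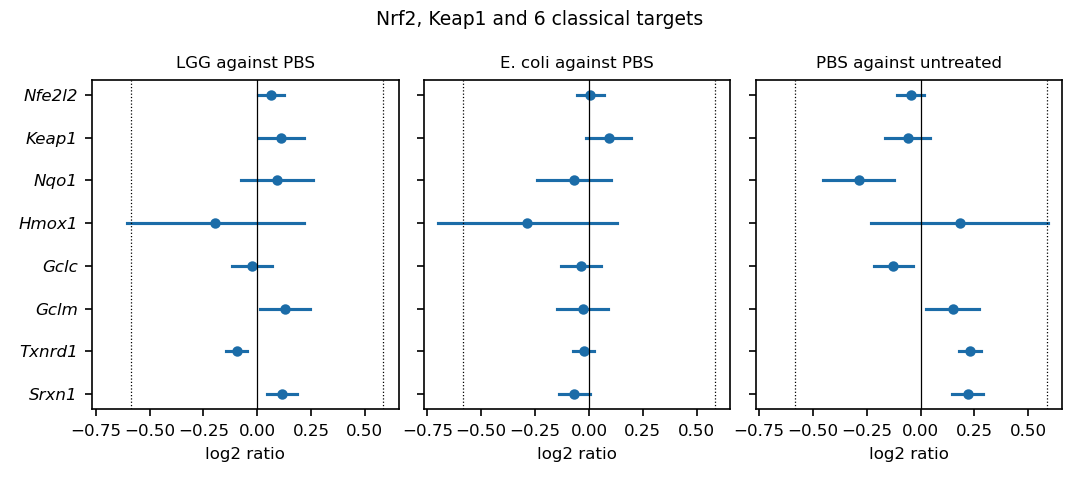
Log2 ratio of scaled counts with its 95% counting interval for Nfe2l2, Keap1 and 6 classical targets in 3 comparisons; dotted lines mark 1.5-fold. All points lie inside 1.5-fold, from -0.29 (Nqo1 in PBS against untreated, and Hmox1 in E. coli against PBS) to 0.23 (Txnrd1 in PBS against untreated).

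Of the enzymes acting on quinones, haem, carbonyls and epoxides, Nqo1, the quinone reductase most often used as a marker of Nrf2 activity, was at 29.2 CPM after LGG, 26.1 after E. coli, 27.4 after PBS and 33.5 untreated. The untreated library was the highest, opposite to the thioredoxin genes, and the LGG against untreated ratio was -0.20 (-0.33 to -0.06). LGG against PBS gave 0.09 with an interval of -0.08 to 0.26. Hmox1, which opens the haem ring, had 132 counts after LGG, 123 after E. coli, 83 after PBS and 130 untreated, or 4.51, 4.23, 5.17 and 4.55 CPM. At this depth no difference was detectable in any of the 6 comparisons, since each interval includes 0. Blvrb, biliverdin reductase B, stayed between 17.2 and 18.8 CPM.

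Ephx1, microsomal epoxide hydrolase, was at 50.2 CPM after LGG, 48.2 after E. coli, 50.2 after PBS and 37.6 untreated. The gavaged libraries were level with each other and above the untreated one, at 0.42 (0.30 to 0.53) for LGG and 0.42 (0.28 to 0.55) for PBS against untreated. The carbonyl reductase Cbr1 was also lowest in the untreated library, at 229 CPM after LGG, 234 after E. coli, 223 after PBS and 184 untreated, and it was slightly above PBS after E. coli, at 0.07 (0.01 to 0.13).

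The glutathione transferases, which join glutathione to electrophiles, held 1170 summed CPM after LGG, 1116 after E. coli, 1081 after PBS and 967 untreated. In LGG against PBS 10 of the 13 measured transferases were positive, or 76.9% against 49.3% of all genes, with a median of 0.14. In E. coli against PBS 10 were also positive, against 50.7% of all genes, with a median of 0.03. None was past 1.5-fold in either comparison, where 1.57% and 1.47% of all genes were. The membrane-bound transferases were all positive in LGG against PBS, with Mgst2 at 0.30 (0.21 to 0.40), Mgst3 at 0.26 (0.21 to 0.31) and Mgst1 at 0.14 (0.05 to 0.24). Mgst3 was at 358 CPM after LGG, 302 after E. coli, 299 after PBS and 267 untreated, and Mgst2 at 97.9 CPM after LGG, 80.0 after E. coli, 79.5 after PBS and 71.6 untreated. For both, the LGG library stood above the other 3, and the E. coli and PBS libraries were within counting error of each other.

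Gsta3, of the alpha class, had the widest range of the measured transferases. It had 450 counts after LGG, 556 after E. coli, 267 after PBS and 263 untreated, or 15.4, 19.1, 16.6 and 9.21 CPM. The untreated library was low and the 3 gavaged libraries were high, with ratios against untreated of 0.74 (0.52 to 0.96) after LGG, 1.05 (0.84 to 1.27) after E. coli and 0.85 (0.60 to 1.10) after PBS. LGG against PBS gave -0.11 (-0.34 to 0.11). Gsta4, which acts on lipid aldehydes such as hydroxynonenal, had another shape, at 33.0 CPM after LGG, 24.2 after E. coli, 25.6 after PBS and 34.1 untreated. Its LGG and untreated libraries were high, as for Ggt1, with 0.37 (0.20 to 0.54) in LGG against PBS and -0.49 (-0.63 to -0.35) in E. coli against untreated.

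Gsta1 and Gsta2 cannot be told apart with confidence: their transcripts were 97.2% identical over 870 aligned bases, and 44.8% of the 50-base stretches of Gsta2 occur in Gsta1. Of the stretches of Gsta1, 89.7% occur in other genes, chiefly the predicted gene Gm3776 with 82.9%. The length of 50 bases was chosen for this check, because no source used here states the read length. Gsta1 was at 3.99 to 4.72 CPM, and Gsta2 had 6 counts after LGG, 5 after E. coli, 5 after PBS and 4 untreated.

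In the mu class, Gstm1 was highest after E. coli, at 216 CPM after LGG, 258 after E. coli, 231 after PBS and 189 untreated. It gave -0.26 (-0.31 to -0.21) in LGG against E. coli. Gstm3 lay the other way in that pair, at 0.21 (0.09 to 0.34), and Gstm5 was highest after E. coli, at 0.26 (0.10 to 0.43) against PBS. Transcripts of Gstm1 and Gstm3 were 87.6% identical, and 23.1% and 28.8% of their 50-base stretches occur in other genes. Gstm2 was at 86.7 to 108 CPM, Gstm4 at 12.8 to 14.9 CPM and the theta-class Gstt1 at 18.1 to 20.5 CPM. Gstp1 was at 135 to 148 CPM and shares 62.3% of its 50-base stretches with Gstp2, so its reads may include that gene's.

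The genes that supply NADPH, on which both reductase systems depend, were steady apart from Me1. Me1, cytosolic malic enzyme, which turns malate to pyruvate and also serves fatty acid synthesis, had 1560 counts after LGG, 866 after E. coli, 899 after PBS and 1676 untreated. In CPM these were 53.3 after LGG, 29.8 after E. coli, 56.0 after PBS and 58.7 untreated, so the E. coli library alone was low. The ratio was -0.91 (-1.05 to -0.77) in E. coli against PBS, -0.98 (-1.10 to -0.86) in E. coli against untreated and 0.84 (0.72 to 0.96) in LGG against E. coli. LGG against PBS gave -0.07 (-0.19 to 0.05).

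Adipocyte markers were also lowest after E. coli, at 160 summed CPM after LGG, 77.0 after E. coli, 118 after PBS and 158 untreated, with none of the 8 at 0 and 5 of 7 measured genes past 1.5-fold and lower in E. coli against PBS. The fat droplet coat protein Plin1 was at 4.92 CPM after LGG, 1.31 after E. coli, 3.36 after PBS and 5.36 untreated. In LGG against PBS all 7 measured adipocyte genes were positive, with a median of 0.55, where Me1 was at -0.07. In PBS against untreated 6 of these 7 were negative, with a median of -0.35, where Me1 was again at -0.07. Most measured markers of mesothelium, the cells that line the outer surface of the gut, were lower after E. coli too, with none of 7 at 0. Their sum was lowest in the untreated library instead, at 3571 CPM after LGG, 3305 after E. coli, 3391 after PBS and 2816 untreated. That sum hides how the genes split. Against untreated, 5 of 6 measured ones were negative after LGG and after E. coli, with medians of -0.79 and -1.47. Krt19 alone was positive there, at 0.35 and 0.24. In PBS against untreated 4 were negative, with a median of -0.30, and Krt19 was at 0.27. In E. coli against PBS 5 of 6 measured ones were past 2-fold and lower, with a median of -1.30, and Krt19 was at -0.03. Msln was at 5.54 CPM after LGG, 4.13 after E. coli, 10.28 after PBS and 8.83 untreated. In LGG against PBS the list had a median of -0.70, with 3 of 6 past 1.5-fold and lower, where Me1 was at -0.07. Fat cells are known to express Me1, and the part of attached fat or outer lining in its difference was not tested. Of the 50-base stretches of Me1, 27.0% also occur in other genes, chiefly the predicted gene Gm7049.

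**Figure D5:**
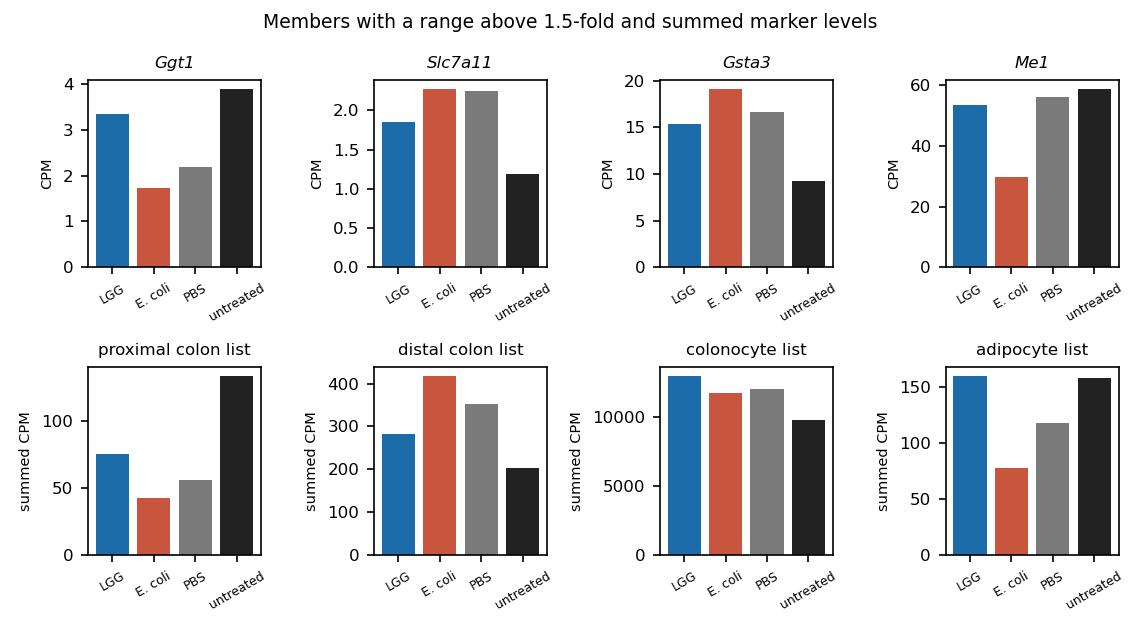
CPM of the 4 members whose levels ranged beyond 1.5-fold (upper row) and summed CPM of 4 marker lists (lower row) in the LGG, E. coli, PBS and untreated libraries, 1 bar per library. The E. coli library is lowest for Me1 (29.8 CPM) and for the adipocyte list (77.0 CPM), and the untreated library is lowest for Slc7a11 and Gsta3 and for the distal colon and colonocyte lists.

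The pentose phosphate enzymes showed small and mixed ratios. G6pdx, its entry enzyme, was at 59.7 CPM after LGG, 61.9 after E. coli, 67.9 after PBS and 59.5 untreated, and was thus highest after PBS. Taldo1 was at 377 CPM after LGG, 311 after E. coli, 318 after PBS and 336 untreated, with 0.25 (0.20 to 0.30) in LGG against PBS. Pgd, Tkt and the isocitrate dehydrogenase Idh1 lay at 0.02, 0.05 and 0.05 in the same comparison.

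Of the enzymes that remove superoxide and peroxide, mitochondrial Sod2 was at 124 CPM after LGG, 116 after E. coli, 114 after PBS and 104 untreated, and its ratio in LGG against untreated was 0.26 (0.18 to 0.33). Cytosolic Sod1 was at 265 CPM after LGG and at 240.1, 239 and 239 CPM after E. coli, after PBS and untreated. Catalase (Cat) was higher in the untreated library, at 90.3 CPM after LGG, 89.4 after E. coli, 88.5 after PBS and 107 untreated. The gavaged libraries did not differ from each other for Cat beyond counting error.

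The efflux pumps for glutathione conjugates differed in abundance and in shape. Abcc3, on the basolateral side, was at 336 CPM after LGG, 310.1 after E. coli, 302 after PBS and 344 untreated, with -0.19 (-0.24 to -0.14) in PBS against untreated. The apical pump Abcc2 had 148 counts after LGG, 134 after E. coli, 104 after PBS and 144 untreated, and gave -0.49 (-0.87 to -0.11) in E. coli against PBS, where the PBS library was the highest of the 4.

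Slc7a11 and Gsta3, which were lowest in the untreated library, were highest after E. coli. Between gavaged libraries every Slc7a11 interval includes 0, and that of Gsta3 excludes 0 only in LGG against E. coli, at -0.32 (-0.50 to -0.13). The order of these libraries is thus mostly within counting error for both genes. By point values the distal colon list ran in the same order as both. It summed to 282 CPM after LGG, 418 after E. coli, 354 after PBS and 203 untreated. None of its 7 listed genes in the table was at 0. Its genes went both ways in LGG against untreated, where 3 of 7 had negative ratios, Hoxd11 at -0.46 among them, and 2 were past 1.5-fold and higher. In E. coli against untreated all 7 were positive and 6 past 1.5-fold. Absorptive colonocyte markers, none of 12 at 0, summed to 12987 CPM after LGG, 11742 after E. coli and 12031 after PBS, against 9827 untreated, the lowest of them. These genes split too. Against untreated, 10 of 12 were positive after LGG, 8 after E. coli and 9 after PBS, with 4 past 1.5-fold and higher each time. Slc51a was past 1.5-fold and lower in each, at -0.91, -1.79 and -1.39. The lists were matched to these members after the values were seen, and the part of tissue position or of the epithelial share in the members' differences was not tested.

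Other genes of the pathway, a list of 83 with 79 measured, were set beside the members. In LGG against PBS 49 of the 79 had positive ratios, or 62.0% against 49.3% of all genes, with a median of 0.06. There 1 gene, the leukotriene C4 synthase Ltc4s at 0.69 (0.04 to 1.40), was past 1.5-fold, beside 1.57% of all genes. In E. coli against PBS 39 were positive, or 49.4% against 50.7% of all genes, with a median of -0.01. None was past 1.5-fold there, beside 1.47% of all genes. The most abundant of the list, ferritin heavy chain Fth1 and light chain Ftl1, which store iron released with haem breakdown, gave 0.09 and 0.02 in that comparison. Ftl1 was at 1160.1 CPM after LGG, 1074 after E. coli, 1060.0 after PBS and 923 untreated, the order of Txn1.

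In LGG against E. coli the retinal dehydrogenase Aldh1a1 was past 1.5-fold, at 338 CPM after LGG, 224 after E. coli, 256 after PBS and 312 untreated and a ratio of 0.59 (0.55 to 0.64). The carboxylesterase Ces1g was the only listed gene past 1.5-fold against the untreated library, at 28.02 CPM after LGG, 19.0 after E. coli, 19.9 after PBS and 51.4 untreated. Its ratio was -0.88 after LGG, -1.44 after E. coli and -1.37 after PBS. Past 1.5-fold in these comparisons were 5.27%, 8.3% and 5.88% of all genes, and 2.19% in LGG against E. coli. Like Ggt1 and Gsta4, Aldh1a1 and Ces1g were higher in the LGG and untreated libraries than in the other 2. The 11 other regulators had a median of -0.07 in LGG against PBS with 4 positive, and the 10 other thioredoxin genes a median of 0.12 with 8 positive. These are 36.4% and 80% positive, against 49.3% of all genes.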

How the data were processed

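RNA from colon was sequenced in 4 libraries. Per the labels' protocols, libraries were made with a TruSeq RNA kit after TRIzol extraction and DNase treatment. Per the submitters' processing notes, TopHat2, HOMER and build mm9 were used; their versions and roles, and the use of strand, are not stated there. The authors deposited expected counts per gene in steps of 0.5, which were rounded to whole numbers. Totals ran between 16289580.0 and 29899371 counts. Counts were scaled by trimmed mean of M-values (TMM) factors (edgeR 4.0.16, R 4.3.3), which were 0.979, 0.989, 0.985 and 1.05 for LGG, E. coli, PBS and untreated. CPM, RPKM (with the listed gene length) and log2 ratios, with a prior of 0.5 counts, were computed in Python 3.11.15 (numpy 2.4.6, scipy 1.17.1, pandas 2.3.3, Biopython 1.88, matplotlib 3.10.9). Counting intervals are exact conditional binomial (Clopper-Pearson) intervals; without molecular identifiers, PCR copies count as separate reads. The floor for a count of 0 is 3 counts. The size rules need an interval excluding 0 and a mean CPM of at least 1. No p-value is given because each condition has 1 library.

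The 44 members, the other pathway genes and the marker lists were chosen with earlier results of these data known. All members are named. Those given in every library are 8 classical genes, those past 1.5-fold and the leading one of each role; others are added after their values were seen. Other pathway genes are named where past 1.5-fold, or else the 2 most abundant. Transcripts (GENCODE M21, GRCm38) stood in for a planned protein comparison. Alternatives were DESeq2 1.42.0 size factors, library totals, upper-quartile factors, a prior of 5 counts, unrounded counts, and filters of none or 5 CPM on the mean.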

Additional observations from a re-analysis of the deposited data

How the results depend on the processing

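Alternatives for the counts by highest and lowest library were added after seeing the data. With DESeq2 size factors, upper-quartile factors, no filter or unrounded counts, every count of members stayed within 1.5 times its value and every median of the members moved by less than the typical half-width of their counting intervals. Library totals put the median of all genes in LGG against untreated at -0.10. There the median of the members was 0.0282, with 24 of 43 positive, against -0.0015 in E. coli against untreated and -0.0066 in PBS against untreated, each with 21 positive, so the sign in these last pairs turned while the members stayed above the median of all genes (-0.08 and -0.09). Under library totals 5 members were lowest after LGG (31.7% of all genes), 5 highest after E. coli (18.6%), 15 highest in the untreated library (51.8%) and 5 lower in both bacterial libraries than in both others (24.0%). A mean CPM of at least 5 dropped Ggt1, Slc7a11, Hmox1 and Gsta1: the counts past 1.5-fold were then 0 in LGG against PBS, 1 in LGG against E. coli, 1 in PBS against untreated and 2 in E. coli against untreated, with 1 past 2-fold in the last. With a prior of 5 counts the count in LGG against PBS was 0. Shares of all genes past the size rules were not computed under this filter or this prior. Of 1818 single ratios under these alternatives, 67 left their counting interval, all with library totals, and no ratio past 1.5-fold changed sign. No paired analysis was possible because each condition has 1 library. Depth limits Hmox1, Abcc2, Ggt1, Slc7a11, Gsta1 and Gsta2.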

Other observations

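The 14 measured members with the antioxidant response element core in a promoter window had a median log2 ratio of 0.04 in LGG against PBS, with 8 positive, and the 24 without it had 0.09, with 20 positive. Of all genes 49.3% were positive in that comparison. In E. coli against PBS the medians were -0.03 with the core and 0.02 without it, and in LGG against E. coli 0.08 and 0.06. The windows cover 300 bases, and known elements of some members lie outside such windows. The spread was wide among members with the core, from -0.36 for Abcc2 to 0.61 for Ggt1 in LGG against PBS.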
